A study of Mus musculus with 4 samples.

Results

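Large peritoneal macrophages are the resident phagocytes of the abdominal cavity, and 10 genes commonly used to recognise them were followed here: Gata6, Rarb, Wt1, Bhlhe41, Icam2, Timd4, Selp, F5, F10 and Prg4. The members were given by symbol, and each matched 1 row of the 55414 genes listed. RNA of mouse peritoneal macrophages was sequenced after exposure for 24 h to LUP at 0.5 mg/ml (2 libraries) or to complete medium as vehicle (2 libraries). The labels leave the abbreviation LUP unexplained, give no strain, sex, age, way of eliciting the cells or purity, and do not say whether libraries came from separate cultures. The p-values below therefore measure the spread between these libraries, which may be technical.

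The identity of large peritoneal macrophages is built by the zinc-finger transcription factor GATA6, whose gene is switched on by retinoic acid, a vitamin A product supplied in the cavity by mesothelial and stromal cells. Retinoic acid acts through nuclear receptors (RAR and RXR proteins) that bind repeated hexamers in DNA. The programme that follows includes surface molecules used for sorting (ICAM2, TIM-4, P-selectin), coagulation factors V and X, and the lubricating proteoglycan lubricin (Prg4).

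Promoter sequences of the members were searched for such hexamers, and those of Rarb, Timd4, F5 and F10 are given because Rarb is the textbook retinoic acid target and the other genes are members that rose or fell below. They are RefSeq windows on build GRCm38.p6 (no source used here names the build of the expression table), 250 bases before to 50 after the annotated start, written in the direction of transcription. Windows for 6 of the 10 members were matched. That of Bhlhe41, a member also called higher below, held no hexamer and the only E-box match, and it is not printed. Capitals mark matches, on either strand, to a receptor hexamer, to a GATA site or to the E-box CACGTG. The hexamer was searched as AGGTCA and also as AGTTCA, then with a leading G as GGGTCA and likewise as GGTTCA. The GATA site was searched as AGATAA and also as TGATAA, then with a final G as AGATAG and likewise as TGATAG. The Rarb run of 17 capitals also holds the direct repeat of hexamers with 5 bases between.
Rarb, chr14:16575427-16575726, minus strand: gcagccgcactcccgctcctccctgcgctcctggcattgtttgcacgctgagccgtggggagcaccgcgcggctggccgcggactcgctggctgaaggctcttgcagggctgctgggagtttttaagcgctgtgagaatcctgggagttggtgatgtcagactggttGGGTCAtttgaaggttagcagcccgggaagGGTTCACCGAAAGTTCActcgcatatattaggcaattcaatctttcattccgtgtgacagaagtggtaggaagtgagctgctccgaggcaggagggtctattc
Timd4, chr11:46810549-46810848, plus strand: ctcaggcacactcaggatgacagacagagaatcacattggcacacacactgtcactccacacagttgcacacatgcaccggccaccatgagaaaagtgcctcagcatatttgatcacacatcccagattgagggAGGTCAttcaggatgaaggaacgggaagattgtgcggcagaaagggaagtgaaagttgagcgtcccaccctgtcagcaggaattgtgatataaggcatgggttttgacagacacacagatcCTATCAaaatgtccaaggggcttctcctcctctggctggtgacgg
F5, chr1:164151585-164151884, plus strand: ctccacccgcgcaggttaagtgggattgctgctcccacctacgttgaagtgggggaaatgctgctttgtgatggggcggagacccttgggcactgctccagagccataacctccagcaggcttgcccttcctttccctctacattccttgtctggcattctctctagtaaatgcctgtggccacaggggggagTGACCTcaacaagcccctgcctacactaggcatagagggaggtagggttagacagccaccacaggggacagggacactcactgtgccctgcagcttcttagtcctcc
F10, chr8:13037058-13037357, plus strand: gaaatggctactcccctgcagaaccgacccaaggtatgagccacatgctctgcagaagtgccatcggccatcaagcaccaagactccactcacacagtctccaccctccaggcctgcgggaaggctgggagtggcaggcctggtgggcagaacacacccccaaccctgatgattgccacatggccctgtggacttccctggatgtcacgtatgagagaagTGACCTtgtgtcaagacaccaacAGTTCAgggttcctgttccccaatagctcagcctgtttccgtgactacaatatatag

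The Rarb window held 3 receptor hexamers, of which 2 formed the direct repeat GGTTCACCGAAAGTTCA, 53 bases before the start. That arrangement was found in 32 of 32851 windows of the same length (0.0974%), whereas at least 1 hexamer was found in 43.7%. F10 and Selp had 2 single hexamers each, Timd4 and F5 had 1 each and Bhlhe41 had none. A GATA site was present in Timd4 alone among the 6 windows and in 29.8% of all windows, and the E-box, the site that BHLHE41 itself can bind, was present in Bhlhe41 alone and in 7.15% of all windows. These are matches of letters and do not show that a factor binds.

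The libraries treated with LUP held 23617618 and 22460913 counts in total, and those given vehicle 19949818 and 23172691. Across the table edgeR's quasi-likelihood test called 6785 of 13355 tested genes at a Benjamini-Hochberg adjusted p under 0.05, 27.1% of the tested genes higher and 23.7% lower with LUP. Rises made up 53.4% of the calls, against 41.4% after quantile normalization. With limma on log2(TPM + 1) and log2(TPM + 0.1) they made up 44.0% and 43.7%. In those settings, in the same order, log2 fold changes differed from the main fit's by a median of -0.093, -0.098 and -0.10 over shared genes. General macrophage genes were abundant: the lysozyme gene Lyz2 averaged 15825 ± 245 TPM with LUP and 22234 ± 206 TPM with vehicle, and Cd68, a lysosomal membrane protein gene named after its values were seen, averaged 4056 ± 60.1 TPM with LUP and 4209 ± 68.3 TPM with vehicle (SD, n = 2 each). TPM, as the authors deposited it, is a level corrected for gene length and library size.

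The 10 identity genes were uneven in level against that background. Without a reference level for large peritoneal macrophages, whether the name of the list holds for these cells was not tested. F10 and Bhlhe41 made up 93.2% of the summed TPM of the members in each LUP library, against 86.5% and 87.4% in the vehicle libraries. No other member exceeded 19.4 TPM in any library. Gata6, the defining factor, ranked 11419th with LUP and 10036th with vehicle by mean TPM among all listed genes, and Timd4 ranked 12178th and 19668th. Rarb and Selp had at most 20 counts in any library and fell below the filter on low counts, so 8 members were tested.

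**Figure D1:**
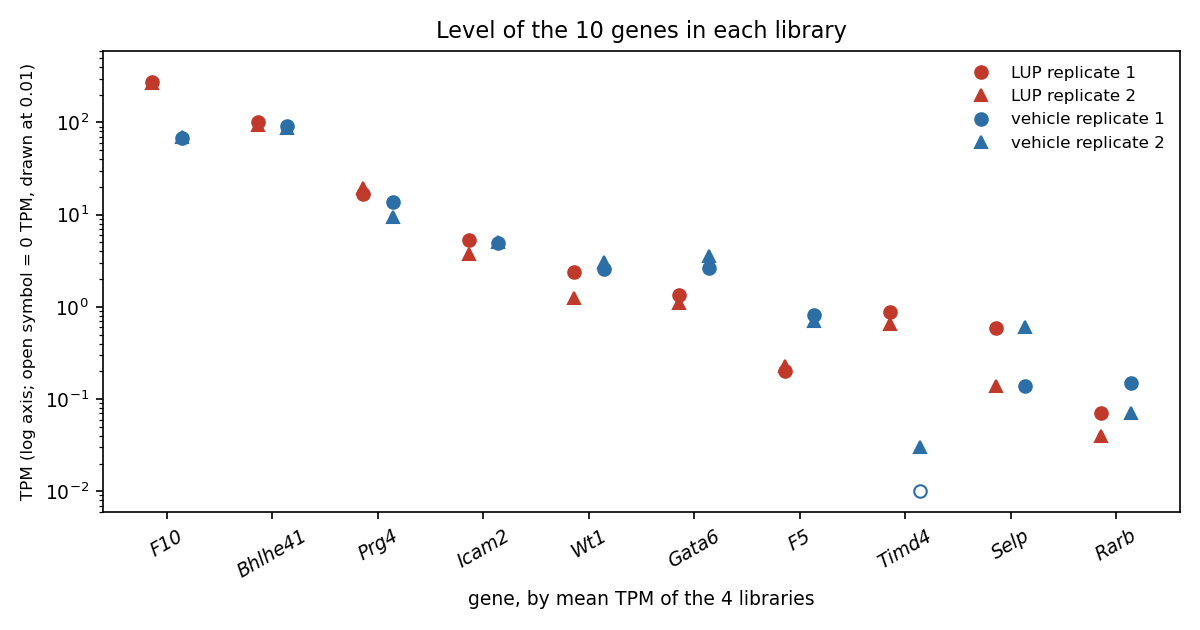
Deposited TPM (log axis) of each of the 10 genes in every library; red symbols are LUP and blue symbols vehicle, with circles for replicate 1 and triangles for replicate 2. F10 and Bhlhe41 stand above 68 TPM in all libraries, and Timd4 is at 0 and 0.03 TPM in the vehicle libraries.

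Of the 10 members, 4 were called higher with LUP (F10, Prg4, Bhlhe41 and Timd4), 2 were called lower (Gata6 and F5), 2 were not called (Icam2 and Wt1) and 2 could not be tested. The median log2 fold change over the 8 tested members was 0.21, beside -0.0011 over all tested genes. Timd4 passed the filter through the LUP libraries alone, so its inclusion already required a difference. The members thus did not move in 1 direction, and the shares called stand beside 27.1% higher and 23.7% lower over all tested genes.

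**Figure D2:**
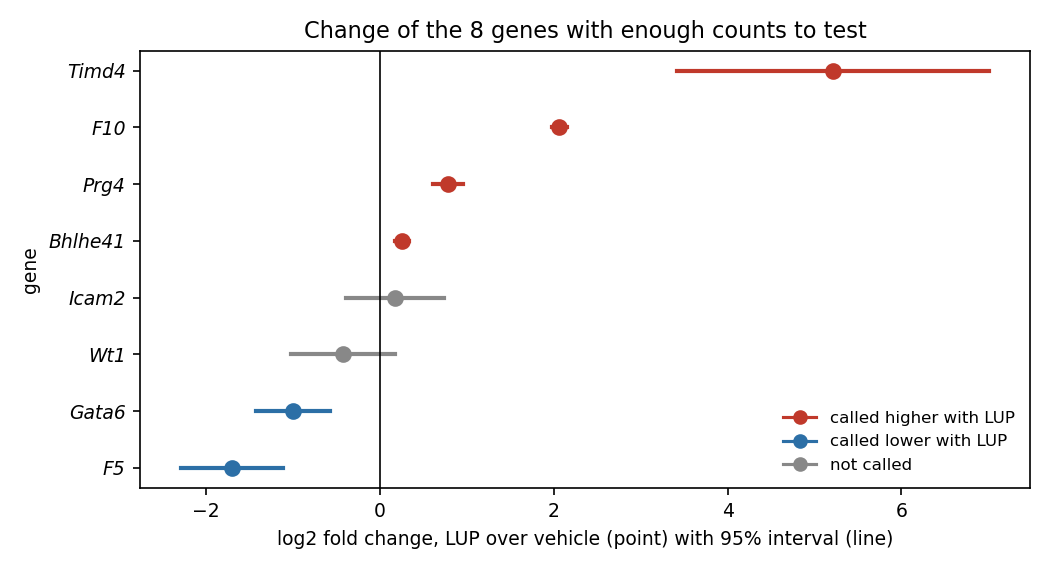
Log2 fold change, LUP over vehicle, of the 8 tested genes, with points for the edgeR estimate and lines for its 95% interval (2 libraries per group). F10 lies at 2.06 with a narrow interval, Timd4 has a wide one, and Gata6 and F5 lie wholly below 0.

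Among the transcription factors, Gata6 (ENSMUSG00000005836) had 1.34 and 1.1 TPM (66 and 53 counts) in the LUP libraries, against 2.67 and 3.59 TPM (104 and 124 counts) in the vehicle libraries. Both LUP libraries lay below both vehicle libraries. Gata6 fell, with a log2 fold change of -1.0 (SE 0.204, 95% interval -1.43 to -0.57, edgeR adjusted p = 0.000429), and it was called in all 12 alternative analyses. In bulk RNA, fewer cells of a type and less RNA per cell cannot be told apart.

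Rarb (ENSMUSG00000017491), the retinoic acid receptor beta gene, was near the limit of detection: 3 and 2 counts with LUP, against 5 and 3 with vehicle. The ratio of summed, scaled counts was 0.599, with an exact 95% interval of 0.154 to 2.08 that covers counting error only. A difference in Rarb was not detectable at this depth.

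Wt1 (ENSMUSG00000016458), a zinc-finger factor best known from mesothelial and kidney cells, had 2.38 and 1.25 TPM (86 and 38 counts) with LUP, against 2.59 and 3.07 TPM (70 and 89 counts) with vehicle. The LUP libraries differed from each other by more than the vehicle libraries did, and the groups overlapped in counts but not in TPM. The log2 fold change of -0.43 (95% interval -1.02 to 0.17, edgeR adjusted p = 0.225) was not called, and it depended on which LUP library was kept: Wt1 stood at -1.07 (adjusted p = 0.00429) without LUP replicate 1 and at 0.011 (adjusted p = 0.98) without LUP replicate 2.

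Bhlhe41 (ENSMUSG00000030256), a basic helix-loop-helix repressor that with Bhlhe40 maintains self-renewal of alveolar macrophages in mice, had 102.12 and 94.24 TPM with LUP, against 91.45 and 87.93 TPM with vehicle. The groups did not overlap, and the rise was small, 1.19-fold (log2 0.25, SE 0.0379, edgeR adjusted p = 1.87e-05). Both limma fits on TPM gave a smaller value, 0.13 in each (adjusted p = 0.167 and 0.169), and ended the call. Its deposited expected counts were not all whole numbers. Bhlhe40 moved the other way, at 132.47 and 129.05 TPM with LUP and 263.21 and 267.36 TPM with vehicle (log2 -0.92, adjusted p = 1.28e-13).

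Gata6 and Wt1 are also expressed by mesothelial cells, which line the cavity, and markers of those cells were lower in the LUP libraries. Of 10 tested mesothelial markers other than Wt1, 9 were called lower and none higher. Over all tested genes 23.7% were called lower and 27.1% higher. Of the 9, 5 (Upk1b, Gpm6a, Krt7, Krt18 and Krt19) reached the minimum of the filter on low counts in vehicle libraries alone, so their inclusion already required a difference; of the other 5 tested markers, 4 were called lower. Of the full list, Wt1 included, 5 markers were called lower with DESeq2. Fewer than in the main fit were also called when LUP replicate 2 or either vehicle library was left out. With a minimum mean of 1 TPM, 3 were called lower, and 2 with either limma fit. Those settings tested only Lrrn4, Krt8, Upk1b and Wt1 of the list. The 13 listed markers other than Wt1 summed to 6.68 and 4.80 CPM (counts scaled to library size by TMM) in the LUP libraries, against 18.4 and 21.3 in the vehicle libraries. Lrrn4 had 0.89 and 0.55 TPM with LUP, against 2.56 and 3.31 TPM with vehicle, and the epithelial keratin gene Krt8 1.17 and 0.25 TPM with LUP, against 2.64 and 2.68 TPM with vehicle. Upk1b and Krt18 were lower as well (log2 -2.56 and -2.75), while Msln, the mesothelin gene, at 5 and 17 counts in the LUP libraries and 14 and 17 in the vehicle libraries, was not called (adjusted p = 0.453; named after its values were seen). LUP replicate 2 had less Wt1 and a lower mesothelial sum than LUP replicate 1. In LUP replicate 1, however, Wt1 was at 3.66 CPM, beside 3.49 and 3.78 CPM with vehicle, while the mesothelial sum was below both vehicle libraries. The part of mesothelial RNA in the values of Gata6 and Wt1 was not tested.

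**Figure D3:**
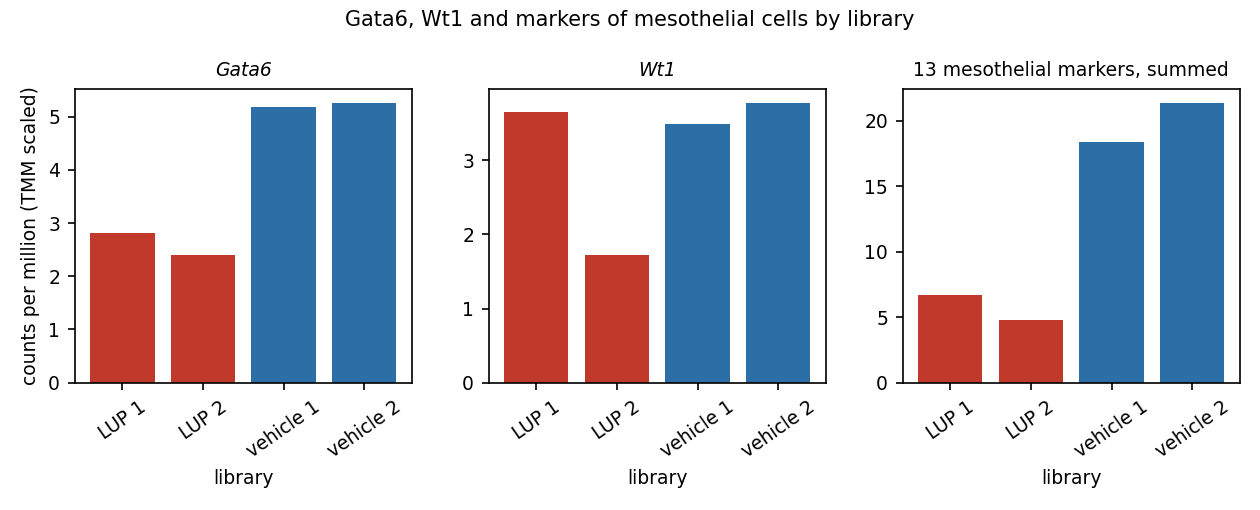
Library-scaled counts (CPM, scaled by TMM) of Gata6, Wt1 and the sum of 13 other mesothelial markers in each library (red, LUP; blue, vehicle; 1 bar per library). Gata6 stands at 2.81 and 2.40 with LUP and 5.18 and 5.26 with vehicle. Wt1 stands at 3.66 and 1.72 with LUP and 3.49 and 3.78 with vehicle. The marker sum stands at 6.68 and 4.80 with LUP and 18.4 and 21.3 with vehicle.

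The antisense genes Gata6os and Wt1os, chosen after their values were seen, had at most 3 and 5 counts in a library. By the distance between centred log2 CPM values over the 4 libraries, the genes most like Gata6 among those tested were Rab11fip2 (0.0327), Tpt1-ps3 (0.0623) and Arhgap26 (0.0645). This likeness rests on 4 libraries in 2 groups. The level of the pseudogene Tpt1-ps3 is uncertain because a pseudogene can share reads with its parent gene.

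Among the surface molecules, Timd4 (ENSMUSG00000055546) was nearly absent with vehicle. Its gene encodes TIM-4, a receptor for phosphatidylserine that lets macrophages take up dying cells. It had 28 and 20 counts (0.88 and 0.65 TPM) in the LUP libraries, against 0 and 1 count (0 and 0.03 TPM) in the vehicle libraries. The ratio of summed, scaled counts was 46.0, with an exact 95% interval of 7.87 to 1853 for counting error only (edgeR adjusted p = 4.45e-05). That p-value belongs to a gene that passed the filter on low counts through the LUP libraries alone, so its inclusion already required a difference. Both LUP libraries lay above both vehicle libraries, yet below 1 TPM, so the level stayed under that of Gata6. Havcr1 and Timd2, other genes of the TIM family, had no counts in any library, and Havcr2, which encodes the checkpoint receptor TIM-3, fell to 8.21 and 8.86 TPM with LUP, against 18.69 and 19.07 TPM with vehicle (adjusted p = 1.64e-10).

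Icam2 (ENSMUSG00000001029), an adhesion molecule used with F4/80 to sort these macrophages, had 5.38 and 3.7 TPM (69 and 48 counts) with LUP, against 4.92 and 5.01 TPM (44 and 55 counts) with vehicle. The groups overlapped. Its log2 fold change of 0.18 had a 95% interval of -0.39 to 0.74 (edgeR adjusted p = 0.616), and the sign turned on the TPM scale (-0.12 and -0.15 with limma) and without LUP replicate 1 (-0.054). Icam1, the family member whose gene responds to inflammatory signals, stood at 103.25 and 100.34 TPM with LUP, against 18.56 and 17.57 TPM with vehicle, a 6.07-fold rise (adjusted p = 3.59e-18).

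Selp (ENSMUSG00000026580), which encodes the adhesion lectin P-selectin, had 4 and 6 counts with LUP, against 6 and 20 with vehicle. Vehicle replicate 2 held 20 of the 26 vehicle counts, and the groups overlapped. The ratio of summed, scaled counts was 0.368 (exact 95% interval 0.159 to 0.789 for counting error only), a value that rests on that library. The deposited TPM did not follow these counts, at 0.59 and 0.14 with LUP and 0.14 and 0.6 with vehicle.

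Among the secreted proteins, the coagulation genes went in opposite directions. F10 (ENSMUSG00000031444) encodes factor X, the protease that cuts prothrombin to thrombin, and F5 (ENSMUSG00000026579) encodes factor V, the cofactor with which factor X works. F10 had 272.7 and 266.27 TPM with LUP, against 68.04 and 68.77 TPM with vehicle. The groups lay far apart, a 4.17-fold rise (log2 2.06, SE 0.0414, edgeR adjusted p = 3.21e-18), and F10 passed Bhlhe41 to become the highest of the 10 genes with LUP. The adjacent gene F7, which encodes the protease factor VII that activates factor X, had 223 and 222.86 TPM with LUP, against 132.96 and 133.38 TPM with vehicle, a 1.79-fold rise (adjusted p = 1.69e-12).

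F5 had 0.2 and 0.23 TPM (24 and 27 counts) with LUP, against 0.82 and 0.7 TPM (80 and 79 counts) with vehicle. Both LUP libraries lay below both vehicle libraries, and the log2 fold change was -1.70 (SE 0.281, 95% interval -2.29 to -1.11, edgeR adjusted p = 4.89e-05). In level, F10 and F5 were already far apart with vehicle, at 68.4 ± 0.516 and 0.76 ± 0.0849 TPM (SD, n = 2).

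Prg4 (ENSMUSG00000006014) encodes lubricin, a secreted glycoprotein that keeps serous and joint surfaces slippery. It had 823 and 742 counts with LUP, against 440 and 429 with vehicle, and 16.62 and 19.36 TPM with LUP, against 13.67 and 9.54 TPM with vehicle. The groups did not overlap on either scale. By counts Prg4 rose 1.72-fold (log2 0.78, SE 0.0831, edgeR adjusted p = 2.11e-07), whereas on TPM, in which the vehicle libraries differed more, limma missed the threshold (log2 0.61 and 0.65, adjusted p = 0.0693 and 0.0594). The deposited expected counts of Prg4 were not all whole numbers.

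The order of the members by level was F10, Bhlhe41, Prg4, Icam2, Wt1, Gata6, Timd4, Selp, F5 and Rarb with LUP, and Bhlhe41, F10, Prg4, Icam2, Gata6, Wt1, F5, Selp, Rarb and Timd4 with vehicle. The libraries of neighbours in that order overlapped for Wt1 and Gata6 in both groups, for Selp and F5 with LUP and for Selp and Rarb with vehicle. In the authors' deposited table, whose fold changes run vehicle over LUP and so have the opposite sign, Timd4, F5 and F10 were marked significant. Gata6 was not marked in the authors' deposited table, where its log2 value was 0.998 with an adjusted p of 0.0132. Prg4 and Bhlhe41 were not marked either (deposited log2 -0.781 and -0.254). The marked members had deposited log2 values of larger size than these (Timd4 -5.53, F5 1.70 and F10 -2.07).

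Beyond the 10 members, a wider list of 24 genes of resident peritoneal macrophages also held genes called in each direction. Of 22 tested, 9 were called higher and 8 lower (median log2 0.15), beside 27.1% higher and 23.7% lower over all tested genes. Adgre1, the gene of the sorting marker F4/80, had 587.19 and 584.48 TPM with LUP, against 115.41 and 123.31 TPM with vehicle, a 4.86-fold rise (edgeR adjusted p = 1.52e-19). Itgam, the CD11b integrin gene, rose 1.94-fold, and Cebpb, a factor these macrophages require in mice, rose 1.75-fold. The tetraspanin gene Cd9 fell to 833.67 and 832.64 TPM with LUP, against 1398.92 and 1391.64 TPM with vehicle.

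Further genes of this list are named after their values were seen. Vsig4, which encodes a complement receptor, fell to 3.13 and 1.85 TPM with LUP, against 12.84 and 9.74 TPM with vehicle, and the integrin gene Itga6 fell to 8.57 and 7.87 TPM, against 27.21 and 26.71 TPM with vehicle. Cd5l and Cd93 were also called lower (log2 -0.91 and -1.04). The protease inhibitor gene Serpinb2 reached 52.57 and 47.02 TPM with LUP, against 10.64 and 11.6 TPM with vehicle, and the scavenger receptor gene Marco rose 3.86-fold. The sorting markers Adgre1 and Itgam and the factor Gata6 thus moved in opposite directions.

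**Figure D4:**
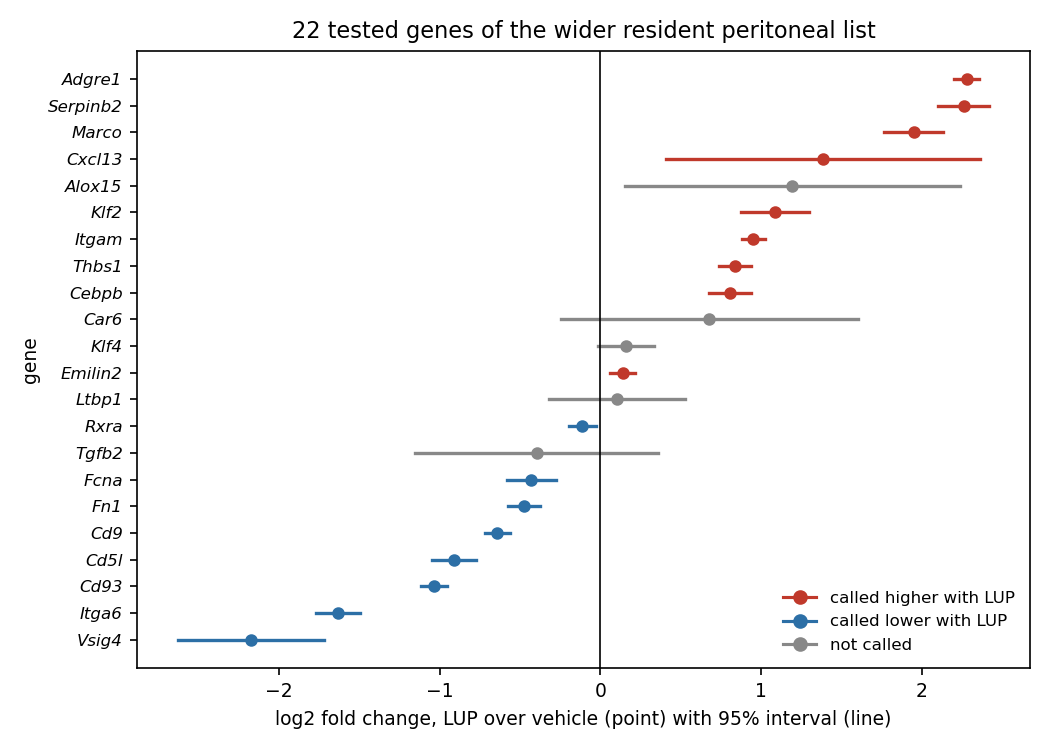
Log2 fold change, LUP over vehicle, with 95% intervals, of the 22 tested genes of the wider resident peritoneal list (edgeR, 2 libraries per group; red, called higher; blue, called lower; grey, not called). Adgre1 lies highest at 2.28 and Vsig4 lowest at -2.17.

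The retinoid pathway list joined genes of retinoic acid supply and sensing with genes that respond to it, such as Tgm2. The list held 4 higher and 7 lower genes of 17 tested (25 listed), beside 27.1% higher and 23.7% lower over all tested genes. The 4 higher genes were 2 without vehicle replicate 2, 2 with DESeq2 and 1 with either limma fit. Of the called genes Aldh1a3, higher, and Aldh1a1, lower, reached the filter's minimum in 1 group alone. Dhrs3, a retinaldehyde reductase gene, fell to 131.95 and 130.92 TPM with LUP, against 412.42 and 409.06 TPM with vehicle (log2 -1.54, edgeR adjusted p = 1.44e-16). Tgm2, a transglutaminase gene induced by retinoic acid in several cell types, fell to 69.99 and 65 TPM with LUP, against 89.86 and 91.53 TPM with vehicle. The receptor genes Rxra and Rxrb were lower (log2 -0.11 and -0.47, adjusted p = 0.0228 and 1.78e-05). The close relatives of Rarb, named after their values were seen, were higher. Rara had 13.63 and 11.13 TPM with LUP, against 10.86 and 8.43 TPM with vehicle (adjusted p = 0.000615), and Rarg had 15.55 and 15.48 TPM with LUP, against 11.86 and 8.81 TPM with vehicle (adjusted p = 9.13e-07). Among 20 family relatives of the members, 5 of 10 tested were called higher and 4 lower, and 2 of the lower ones (Gata5 and F9) reached the filter's minimum with vehicle alone. With limma the counts were 3 higher and 2 lower.

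Other macrophage lists give the setting of these values, and their calls stand beside 27.1% higher and 23.7% lower over all tested genes. Of 15 tested genes of small peritoneal macrophages and monocytes, 10 were called lower and 3 higher, of which Plac8 reached the filter's minimum with LUP alone. Cd74, H2-Aa and Itgax were lower (log2 -0.22, -0.66 and -0.92), and H2-Ab1 was called higher on counts (log2 0.18, adjusted p = 0.0105) although its TPM overlapped between the groups. Ccr2, the receptor of recruited monocytes, fell to 0.29 and 0.56 TPM with LUP, against 3.52 and 3.64 TPM with vehicle, whereas Ly6c2 reached 98.02 and 80.95 TPM with LUP, against 2.36 and 1.84 TPM with vehicle (both named after their values were seen). Of 10 tested identity genes of other tissue macrophages, 3 were higher, Tfec among them (log2 1.74), and 4 lower, namely Chil3, Pparg and Id3 (log2 -0.44, -1.22 and -0.93) and Hpgd, which reached the filter's minimum with vehicle alone. Of 12 general macrophage genes, 6 were higher and 4 lower, with Csf1r, the receptor of the growth factor CSF1, at log2 1.02.

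Cell types that also express some of the members were checked by their markers. The calls in these and the later marker lists stand beside 27.1% higher and 23.7% lower over all tested genes. Of the endothelial list, which bears on Icam2 and Selp, 2 of 3 tested genes were lower (Vwf and Kdr). The count was 1 without LUP replicate 2, with DESeq2 and with either limma fit. The third, the junction gene Cdh5, had 26 and 29 counts in the LUP libraries, against 8 and 21 counts in the vehicle libraries, and was not called (log2 0.87, adjusted p = 0.117). Pecam1 had 5 and 4 counts in the LUP libraries, against 4 and 10 in the vehicle libraries, and Emcn and Cldn5 had no counts in any library. The list summed to 36.94 and 36.85 TPM with LUP, against 96.24 and 105.02 TPM with vehicle, most of it Vwf, at 30.12 and 32.45 TPM with LUP and 89.77 and 97.05 TPM with vehicle. Of the platelet and megakaryocyte list, which bears on Selp and F5, 1 of 5 tested genes was higher (Ppbp) and 2 were lower (Itgb3 and Treml1). Ppbp, with 13 and 12 counts in the LUP libraries and none with vehicle, reached the filter's minimum with LUP alone and was not called higher when either LUP library was left out. Treml1 reached it with vehicle alone, and 1 gene was called lower when any 1 library was left out. Gp1bb had no counts in any library, and the list summed to 7.8 and 5.13 TPM with LUP, against 9.18 and 9.29 TPM with vehicle. The part of these cells in the values of Icam2, Selp and F5 was not tested.

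Of 6 tested fibroblast genes 3 were higher (Col1a1, Dcn and Pdgfrb) and 1 was lower (Pdgfra), beside 27.1% and 23.7% over all tested genes. Those called higher numbered 5 without LUP replicate 2 and 5 with no filter on low counts, and 0 with either limma fit; those called lower numbered 2 without LUP replicate 1, and 0 with DESeq2 and with either limma fit. The fibroblast list summed to 456 and 351 CPM with LUP, against 311 and 349 CPM with vehicle, lower in LUP replicate 2 than in LUP replicate 1.

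Of 2 tested B cell genes Cd22 was lower and Ighm was not called, and 2 genes were called lower without LUP replicate 1 or without vehicle replicate 1. The 1 tested T and NK cell gene, Lck, had 39 and 24 counts in the LUP libraries, against 11 and 21 counts in the vehicle libraries, and was not called (adjusted p = 0.0823); without LUP replicate 2 or without vehicle replicate 1, 1 gene of that list was called higher and 1 lower. Of 4 tested neutrophil genes Mmp8, S100a8 and Camp were higher and Cxcr2 was lower, beside 27.1% higher and 23.7% lower over all tested genes. Camp reached the filter's minimum with LUP alone and Cxcr2 with vehicle alone, and Cxcr2 was not called without vehicle replicate 2. Ly6g, S100a9 and Mpo had no counts in any library. The neutrophil list summed to 306 and 269.6 TPM with LUP, against 45.5 and 48.4 TPM with vehicle. Nearly all of that was Mmp8, at 213.43 and 179.77 TPM with LUP and 15.86 and 14.49 TPM with vehicle, and S100a8, at 89.61 and 86.92 TPM with LUP and 29.2 and 32.33 TPM with vehicle. Of 5 tested mast cell and eosinophil genes Kit was higher and Siglecf lower, and the eosinophil granule genes Epx and Prg2 had no counts.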

How the data were processed

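Total RNA was extracted with TRIzol and made into paired-end TruSeq libraries, per the labels' protocols, which do not say whether strand was kept. The expected counts and the TPM per gene and library were made and deposited by the authors; fastp, HISAT2, StringTie and RSEM are named, with no version or role, per the submitters' processing notes. Build, annotation and the authors' test: not given in the sources used here. For their comparison the authors deposited in that table a ratio (fold), its log2, and raw and adjusted p-values (p-value columns).

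Expected counts were rounded and tested with edgeR 4.0.16 (R 4.3.3): TMM scaling, filterByExpr defaults (minimum count 10, total 15), glmQLFit with treatment as the only term, Benjamini-Hochberg over 13355 genes. Standard errors and 95% intervals were derived from the quasi-likelihood F statistic. DESeq2 1.42.0 and limma 3.58.1 served as alternatives. The fit was also run on simulated counts. Only well-covered genes were changed there, so that run does not bear on low-count members such as Timd4. Counts within 0.001 of a whole number were taken as whole. Ratios of summed counts have exact binomial intervals, which cover counting error only.

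Members and lists were chosen with earlier results of these data known. Genes outside the members were named first by a rule: up to 4 called genes of each list with the highest mean TPM, up to 2 others where fewer than 2 were called, the markers of other cell types with the highest summed counts, and the 3 tested genes nearest Gata6. Further genes were named after their values were seen: those so marked in the text, markers and relatives with no counts, called genes that reached the filter's minimum in 1 group alone, Cdh5 and Pecam1. Libraries of a group differed beyond counting noise (chi-square per degree of freedom 3.65 with LUP and 2.75 with vehicle) and were counted as 2 each.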

Additional observations from a re-analysis of the deposited data

How the results depend on the processing

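Over 12 alternatives, 81 of 90 member values kept their direction and side of the threshold; F10 and Gata6 did so in all 12, and F5 and Timd4 in the 9 that could fit them. With limma on log2(TPM + 1) and log2(TPM + 0.1) 4212 and 4314 genes were called, and 2 members in each (1 higher, F10, and 1 lower, Gata6); F5 and Timd4 were not tested there. With a minimum mean of 1 TPM 1 member was called lower, because F5 was not tested. The direction of Icam2, never called, turned to -0.12 and -0.15 in these limma fits and ran from -0.054 to 0.375 when 1 library was left out. Wt1 ran from -1.07 to 0.011. Timd4, which passed the main fit's filter through the LUP libraries alone, ran from 3.25 after quantile normalization to 7.53 without vehicle replicate 2. Same-numbered libraries did not deviate together (correlation -0.066), so the numbers were not taken to pair them; with the number as a replicate block 6606 genes were called and Gata6 stood at -1.0. Of 336 comparisons of the other lists' counts, 279 were within 1.5 times the main count. These include comparisons of 0 with 0, such as mesothelial markers called higher, which could hardly differ. The 9 mesothelial markers called lower were 5 with DESeq2. They were 8 with quantile normalization, with the replicate block and with no filter on low counts. Fewer than in the main fit were called when LUP replicate 2 or either vehicle library was left out. With the 1 TPM minimum 3 were called lower and with limma 2, but those settings tested only Lrrn4, Krt8, Upk1b and Wt1 of that list. Rarb and Selp could not be tested at this depth.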
